A study of Mus musculus with 4 samples.

Results

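The genes that load peptides onto major histocompatibility complex (MHC) molecules were followed across 4 mouse livers. The set held 10 genes in 2 pathways. The class I pathway was represented by 6 genes (B2m, H2-K1, H2-D1, Tap1, Psmb8 and Psmb9) and the class II pathway by 4 (H2-Aa, H2-Ab1, H2-Eb1 and Cd74). Members were found by their gene symbol in the scanner files, which gave 13 probes for the 10 genes, of 39392 probes and 30204 gene names that remained on the array after outlier spots were removed. All 10 members were well above background on all 4 arrays.

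The livers came from male C57BL/6J mice kept for 24 weeks on a high-fat diet. Drp1LiKO mice lack Drp1, the dynamin-like GTPase that cuts mitochondria and is encoded by Dnm1l, in the liver, and Cont mice were sibling littermates with floxed Drp1 alleles. The recombinase was Cre under the albumin promoter, which is active in hepatocytes. All 4 groups shared the strain, the sex and the diet. A Cont and a Drp1LiKO liver were labelled refed, which meant a 17 h fast followed by 4 h of feeding, and the other two carried no feeding label and are called fasted here from the study's methods. Every value called fasted rests on that reading. Each group was 1 one-colour array, so no spread between animals was measured, and whether an array held RNA from 1 animal or from several is not given in the sources used here. The labels also state that the raw data of the fasted pair were submitted before. The fasted pair and the refed pair therefore cannot be told apart from 2 separate rounds of work.

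The 75th percentile of the processed signal ran from 357 to 722 fluorescence units, and both Drp1LiKO arrays were brighter than both Cont arrays. Every signal below was divided by that percentile of its own array and put on the log2 scale, so that 0 is the 75th percentile of an array. The scanner's own error model supplied a measurement SE. On the log2 scale it was 0.20 for the difference between 2 arrays for 9 members and 0.21 to 0.22 for Tap1, and it leaves out the variation between mice. The Dnm1l probe gave log2 signals of 1.02 in the fasted Cont liver, 0.81 in the fasted Drp1LiKO liver, 0.66 in the refed Cont liver and 0.54 in the refed Drp1LiKO liver. These differences of -0.21 and -0.12 were at about the size of the measurement SE, and whether the probe lies in the deleted exons is not given in the sources used here, so it did not check the labels. Albumin (Alb) and transthyretin (Ttr), which hepatocytes secrete, were bright on all 4 arrays, with log2 signals from 9.24 to 10.06 and from 7.66 to 8.75.

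MHC class I molecules sit on nearly every nucleated cell. Proteasomes cut proteins of the cytosol into peptides, the TAP transporter carries the peptides into the endoplasmic reticulum, and there they bind a heavy chain paired with beta-2 microglobulin. MHC class II molecules are made mainly by professional antigen-presenting cells, which in the liver include Kupffer cells, dendritic cells and B cells, and they load peptides from endosomes after the invariant chain has been removed. Interferon gamma is a known inducer of both pathways. Hepatocytes carry class I molecules and normally have little class II.

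The class I members had higher signals in the Drp1LiKO liver, relative to the brightness of the array, and the class II members had lower ones. Among the 6 class I members, 5 were above 0 in the fasted pair and 6 in the refed pair, and their median log2 difference, Drp1LiKO minus Cont, was 0.17 in the fasted and 0.49 in the refed pair. Among the class II members, 4 of 4 were below 0 in both pairs, with medians of -0.28 and -0.47. The median over all 18866 detected genes (well above background on any of the arrays) was -0.09 in the fasted and -0.06 in the refed pair, and 43.0% and 44.7% of those genes were above 0. In the fasted pair the class II differences were above those of 25.8% (H2-Ab1) to 49.8% (H2-Aa) of these genes. They thus lay between the 25th and 75th percentiles. In the refed pair they were above those of 14.3% (H2-Ab1) to 31.9% (H2-Aa). The lowest class I member lay above the highest class II member in both pairs, at -0.07 against -0.09 in the fasted pair and at 0.14 against -0.32 in the refed pair. In the fasted pair that gap was far below the measurement SE. No member reached a 2-fold difference in either pair. At 1.5-fold, 1 member passed in the fasted pair (Tap1) and 4 in the refed pair (H2-D1, Tap1 and Psmb9 upward and H2-Ab1 downward), beside 9.85% of all genes upward and 13.8% downward in the fasted pair and 10% and 15.3% in the refed pair. Of all genes detected in the fasted pair, 4.31% reached 2-fold upward and 5.03% downward, and the shares in the refed pair were 4.03% and 6.34%.

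**Figure D1:**
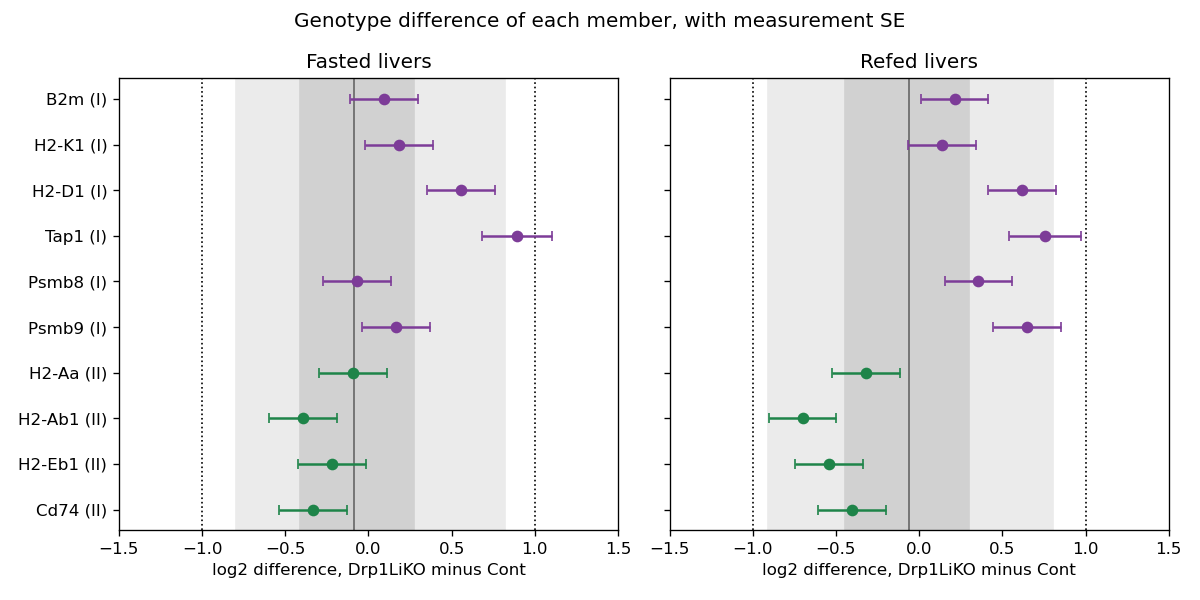
Log2 difference of each member between the Drp1LiKO and the Cont liver in the fasted pair (left) and the refed pair (right), with 1 array per group. Points are differences and bars the measurement SE (0.20 to 0.22); class I members (I) are purple and class II members (II) green; the dark band holds the middle of all detected genes between the 25th and 75th percentiles, the pale band that between the 10th and 90th, the grey line their median, and the dotted lines mark 2-fold. Class I members lie to the right of class II members in both panels, and no point passes a dotted line.

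Peptide supply came first in the class I pathway. Tap1, a subunit of the peptide transporter, had the largest difference of the 10 members in both pairs. In the refed pair that order depended on the processing: with normexp background correction Tap1 was at 0.55, H2-D1 at 0.73 and Psmb9 at 0.71, and with the authors' values they were at 0.71, 0.74 and 0.73. Its log2 signal was -1.12 in the fasted Cont liver and -0.23 in the fasted Drp1LiKO liver, and -1.19 and -0.43 in the refed livers. Both Drp1LiKO livers were above both Cont livers, by 0.89 in the fasted pair (1.85-fold) and by 0.76 in the refed pair (1.69-fold). These differences were above those of 90.9% and 89.1% of all detected genes. Tap1 was the dimmest member, brighter than 67.8% to 74.2% of the probes of an array, and its probe was printed 10 times on each array. The probe reads a coding stretch of Tap1 and is shown because it carried that difference:
Tap1 probe: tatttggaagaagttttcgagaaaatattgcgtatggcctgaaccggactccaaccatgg
It lies on chr17:34330854-34330913 in mm9, the build of the scanner files, and shared no run of 15 or more bases with any other probe of the array.

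Psmb8 and Psmb9 encode catalytic subunits that replace their constitutive counterparts in the immunoproteasome. Psmb8 had log2 signals of 2.46 and 2.40 in the fasted Cont and Drp1LiKO livers and 2.61 and 2.97 in the refed ones. Psmb9 had 2.82 and 2.98 in the fasted livers and 2.85 and 3.50 in the refed ones. For each of these genes the refed Drp1LiKO liver was highest and the other 3 livers lay close together. Psmb8 thus differed by -0.07 between genotypes in the fasted pair and by 0.36 in the refed pair, and Psmb9 by 0.16 and 0.65. The change of the genotype difference with feeding, 0.42 for Psmb8 and 0.48 for Psmb9, was below 2 measurement SEs of 0.29 each and was not tested. The other Psmb9 probe, at chr17:34322762-34322821, stayed within background on every array.

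The cell surface molecule followed. B2m encodes beta-2 microglobulin, the invariant light chain of class I molecules, and was the brightest member. Its log2 signals were 7.33 and 7.43 in the fasted Cont and Drp1LiKO livers and 7.47 and 7.69 in the refed ones, which gave differences of 0.09 and 0.21. Both are about the size of the measurement SE or less, but under quantile normalization they were 0.43 and 0.43, which is above 2 of these SEs. H2-K1, the K heavy chain, had log2 signals of 6.90 and 7.08 in the fasted livers and 7.05 and 7.19 in the refed ones, with differences of 0.18 and 0.14 that were also below the SE, and of 0.50 and 0.27 under quantile normalization. H2-D1, the D heavy chain, had 6.08 and 6.63 in the fasted livers and 6.22 and 6.84 in the refed ones. Its differences of 0.56 and 0.62 (1.47-fold and 1.54-fold) were above 2 measurement SEs in both pairs, and both Drp1LiKO livers were above both Cont livers. B2m, H2-K1 and H2-D1 were each brighter than at least 97.7% of the probes on every array.

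H2-K1 was read by 2 probes that did not give the same size of difference. The brighter one, printed 10 times at chr17:34133055-34133114, gave the values above, and the other, at chr17:34133984-34134043, gave 0.50 in the fasted and 0.39 in the refed pair. The latter reads coding sequence that is shared within the class I family: a run of 29 bases is also in the probe of H2-T23, a nonclassical class I gene with differences of 0.41 and 0.49. The probes are shown 5′ to 3′ with the shared run in capitals:
H2-K1 probe: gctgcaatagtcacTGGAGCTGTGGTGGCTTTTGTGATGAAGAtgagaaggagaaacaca
H2-T23 probe: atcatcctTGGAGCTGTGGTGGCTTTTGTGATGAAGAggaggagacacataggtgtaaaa
The 60-base probes matched at 39 of 54 aligned bases. Such a probe may not separate transcripts of near-identical class I genes, and the part of this overlap in the H2-K1 value was not tested. The brighter H2-K1 probe and the H2-D1 probe shared no run of 15 or more bases with any other probe.

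**Figure D2:**
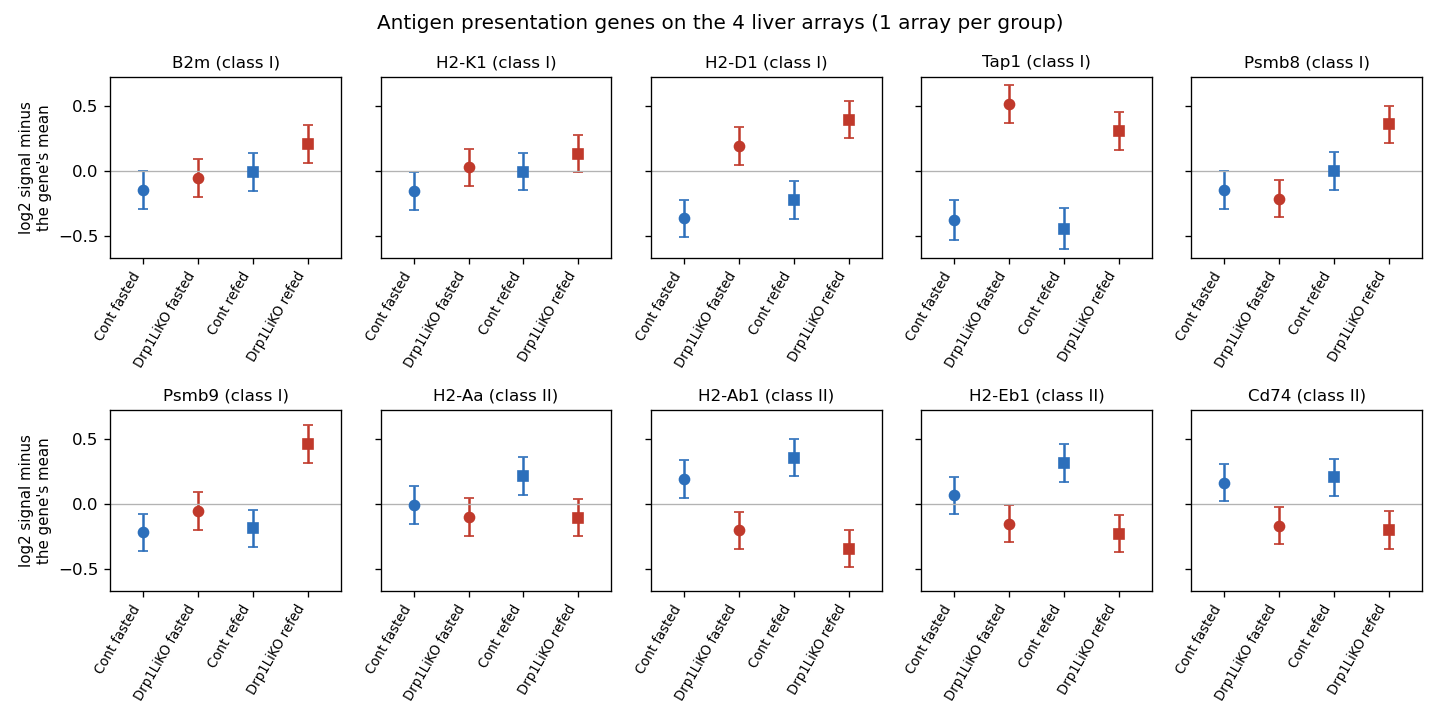
Log2 signal of each member on the 4 arrays, as the distance from the mean of the gene over the arrays. Blue marks Cont, red Drp1LiKO, circles fasted and squares refed livers, and bars are the measurement SE of a single array. Red points lie above blue ones of the same feeding state for every class I member but Psmb8 in the fasted pair, and below them for all 4 class II members.

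In the class II pathway the difference was in the opposite direction. H2-Ab1, the beta chain of the I-A molecule, had the largest one. Its log2 signals were 4.74 in the fasted Cont liver, 4.34 in the fasted Drp1LiKO liver, 4.90 in the refed Cont liver and 4.20 in the refed Drp1LiKO liver. Both Cont livers were above both Drp1LiKO livers, and the difference was -0.40 in the fasted pair (1.32-fold lower) and -0.70 in the refed pair (1.63-fold lower). A probe that overlaps it and matches it at 50 of 51 shared bases gave -0.49 and -0.76, so these readings are not independent. H2-Aa, the alpha chain that pairs with it, had log2 signals of 1.48 and 1.39 in the fasted Cont and Drp1LiKO livers and 1.70 and 1.38 in the refed ones. Its differences were -0.09 and -0.32, below 2 measurement SEs in both pairs. H2-Eb1, the beta chain of the I-E molecule, had 4.23 and 4.01 in the fasted livers and 4.48 and 3.93 in the refed ones. C57BL/6 mice do not make a functional I-E alpha chain, and the probe of that pseudogene, H2-Ea-ps, stayed within background on every array. The H2-Eb1 differences were -0.22 in the fasted pair and -0.54 in the refed pair, and only the latter was above 2 measurement SEs. Cd74, the invariant chain that guards the groove of new class II molecules, had 3.78 and 3.45 in the fasted livers and 3.82 and 3.41 in the refed ones, with differences of -0.33 and -0.40. For all 4 class II members no Drp1LiKO liver reached the level of a Cont liver under this scaling, although H2-Aa differed by less than the measurement SE in the fasted pair. Under quantile normalization this did not hold for H2-Eb1, at 0.015 in the fasted pair. In a whole liver, fewer cells of a type and less RNA per cell cannot be told apart.

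The sign of the class II values depends on the scaling to the array. Before scaling, the processed signal of H2-Ab1 was 12288 in the fasted Cont and 14633 in the fasted Drp1LiKO liver, and 10675 and 9671 in the refed livers. The processed signals of H2-Aa, H2-Eb1 and Cd74 were higher in the Drp1LiKO liver in both pairs before scaling, by 1.47-fold, 1.35-fold and 1.24-fold in the fasted pair and by 1.18-fold, 1.01-fold and 1.11-fold in the refed pair. The class I signals were higher in the Drp1LiKO livers without any scaling as well, for Tap1 with 212 against 617 in the fasted pair and 157 against 390 in the refed pair. The distance between the classes does not depend on a scaling factor of the array, and the class I median exceeded the class II median by 0.45 in the fasted and 0.96 in the refed pair. Median scaling and the rules for dim signals could not move that distance. Over the values reported and the other ways of processing that could (quantile normalization, normexp, the authors' values and the median over probes) it ran from 0.45 to 0.54 in the fasted pair and from 0.79 to 0.96 in the refed pair. Under quantile normalization H2-Eb1 was at 0.015 in the fasted pair, where it no longer lay below 0, and Psmb8 was at 0.09. With normexp background correction the classes touched in the fasted pair, with Psmb8 at -0.023 and H2-Aa at -0.018.

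**Figure D3:**
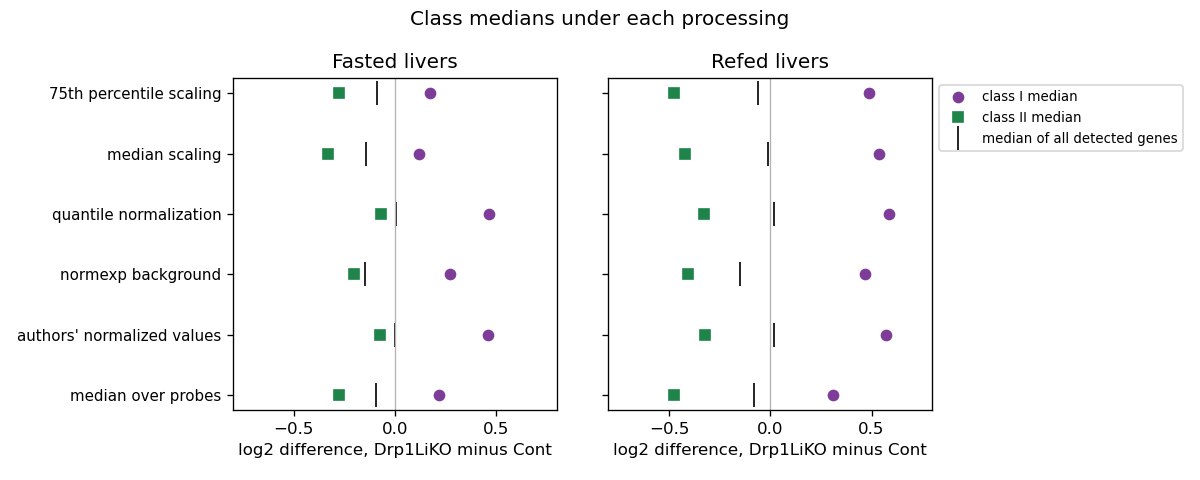
Medians over the 6 class I members (purple circles) and the 4 class II members (green squares) of the log2 difference between genotypes (Drp1LiKO minus Cont) under 6 ways of processing, in the fasted pair (left) and the refed pair (right). Black ticks give the median of all detected genes. The class I median lies to the right of the tick and the class II median to the left of it in every row, from 0.12 to 0.46 for class I and from -0.33 to -0.07 for class II in the fasted pair.

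A genotype effect over the 4 arrays was tested with limma, with genotype and feeding as additive terms, on 16663 genes that were well above background on at least 2 arrays. This fit has 1 residual degree of freedom and takes any change of the genotype difference with feeding as error. After Benjamini-Hochberg adjustment 0 of 10 members passed 0.05, beside a background of 0% of all genes. At an unadjusted p under 0.05 the fit held 3 members of 10, beside 28.4% of all genes, so the members' share was near the background. The members were Tap1 (log2 effect 0.82 ± 0.14 SE, limma adjusted p = 0.104), H2-D1 (0.59 ± 0.14 SE, limma adjusted p = 0.122) and H2-Ab1 (-0.55 ± 0.16 SE, limma adjusted p = 0.147). The smallest limma adjusted p of any gene was 0.0589. When the fit was limited to the 14387 genes that all 4 arrays detected, 1232 genes passed and Tap1 was the single member among them (limma adjusted p = 0.0423).

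Differences with feeding were within the measurement error for most members. In Cont livers the refed minus fasted difference ran from -0.07 (Tap1) to 0.15 (H2-K1) in the class I pathway and from 0.04 (Cd74) to 0.25 (H2-Eb1) in the class II pathway, with none above 2 measurement SEs. In Drp1LiKO livers Psmb8 was 0.57 and Psmb9 0.51 higher after refeeding, which was above 2 measurement SEs, whereas the class II members ran from -0.14 to 0.00. The rise was not particular to these genes. All 7 constitutive proteasome beta subunits were also higher after refeeding, by 0.42 to 0.74 in Drp1LiKO and 0.12 to 0.46 in Cont livers. Psmb10, a further immunoproteasome subunit, was 0.99 higher in Drp1LiKO and 0.52 higher in Cont livers. No member reached 2-fold. The share of all genes past 2-fold after refeeding was 3.49% upward and 3.67% downward in Cont livers, and 4.52% and 4.74% in Drp1LiKO livers. The feeding and genotype differences share arrays, so they are not independent of each other. Under quantile normalization Psmb8 and Psmb9 were 0.40 and 0.31 higher after refeeding in Drp1LiKO livers, and B2m was at -0.19, H2-K1 at -0.42, H2-D1 at -0.32 and H2-Ab1 at -0.45.

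The sequences upstream of the member genes are shown for the class I heavy and light chains, which share known elements, and for a class II pair. RefSeq start sites on GRCm38.p6 gave an upstream window for 8 of the 10 members. In each window of 250 bases the following letters were searched on both strands and are in capitals: AANNGAAA (interferon regulatory factor core), TTCNNNGAA (gamma-activated site core, which reads the same on both strands), GGGATTCC (NF-kappaB enhancer A core), GCAACAG (X1 box core), TGACGT (X2 box core, which reads over itself on the opposite strand in TGACGTCA) and CCAAT (Y box).
B2m, chr2:122147437-122147686, plus strand: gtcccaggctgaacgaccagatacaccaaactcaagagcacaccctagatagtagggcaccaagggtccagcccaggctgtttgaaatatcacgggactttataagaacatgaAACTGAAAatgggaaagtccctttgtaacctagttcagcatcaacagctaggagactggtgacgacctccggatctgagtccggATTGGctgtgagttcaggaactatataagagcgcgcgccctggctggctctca
H2-K1, chr17:34000348-34000597, minus strand: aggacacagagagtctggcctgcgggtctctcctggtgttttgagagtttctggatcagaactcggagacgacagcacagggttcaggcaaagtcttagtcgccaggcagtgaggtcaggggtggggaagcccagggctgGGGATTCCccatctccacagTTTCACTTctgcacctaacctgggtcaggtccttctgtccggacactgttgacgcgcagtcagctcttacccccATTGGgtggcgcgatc
H2-D1, chr17:35262844-35263093, plus strand: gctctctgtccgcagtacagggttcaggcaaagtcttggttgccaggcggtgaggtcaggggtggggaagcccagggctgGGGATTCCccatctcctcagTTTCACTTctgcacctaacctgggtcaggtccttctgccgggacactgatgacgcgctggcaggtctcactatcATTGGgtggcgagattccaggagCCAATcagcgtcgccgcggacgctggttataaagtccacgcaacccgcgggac
H2-Aa, chr17:34287824-34288073, minus strand: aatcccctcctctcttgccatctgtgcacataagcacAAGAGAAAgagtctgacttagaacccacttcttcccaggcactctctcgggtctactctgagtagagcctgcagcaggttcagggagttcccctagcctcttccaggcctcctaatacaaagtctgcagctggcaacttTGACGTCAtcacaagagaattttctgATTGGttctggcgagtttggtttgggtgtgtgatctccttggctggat
H2-Eb1, chr17:34305617-34305866, plus strand: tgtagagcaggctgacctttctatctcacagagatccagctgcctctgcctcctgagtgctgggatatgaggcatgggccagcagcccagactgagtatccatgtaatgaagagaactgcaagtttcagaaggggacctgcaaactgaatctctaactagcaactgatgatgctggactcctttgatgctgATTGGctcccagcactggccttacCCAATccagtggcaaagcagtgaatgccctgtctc

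The interferon regulatory factor core was found upstream of B2m, H2-K1, H2-D1 and H2-Aa, and 21.3% of all 32851 upstream windows hold it. The enhancer A core was found upstream of H2-K1 and H2-D1, and 0.889% of windows hold it. The H2-K1 and H2-D1 windows matched at 166 of 190 aligned bases, with an identical run of 47 bases that covers this core, although the differences of the genes were not of the same size, at 0.18 and 0.14 for H2-K1 and 0.56 and 0.62 for H2-D1. The X2 core was found upstream of H2-Aa (6.47% of windows), the gamma-activated site core upstream of Psmb8 (7.02%) and the Y box letters upstream of 7 of the 8 members in both classes (33.8%). The X1 core letters were in none of the 8 windows (4.46% of windows). A match is a match of letters and no evidence of binding.

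Tap1 and Psmb9 are transcribed away from each other from start sites 226 bp apart, so that they share the sequence between them, shown on the strand of Tap1 with the Y box letters in capitals:
Tap1 and Psmb9, chr17:34187331-34187555, plus strand: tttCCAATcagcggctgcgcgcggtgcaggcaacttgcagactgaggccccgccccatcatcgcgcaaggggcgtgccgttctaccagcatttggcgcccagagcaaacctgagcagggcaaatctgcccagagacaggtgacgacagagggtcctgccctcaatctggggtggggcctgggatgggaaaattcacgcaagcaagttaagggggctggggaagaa
Their genotype differences were 0.89 and 0.16 in the fasted pair and 0.76 and 0.65 in the refed pair. In mm9 the probes of Psmb9, Tap1 and Psmb8 come in that order on chromosome 17, and those of H2-Ab1, H2-Aa and H2-Eb1 lie further along at 34406296, 34421285 and 34453075. Genes of the region that are not members were not placed. In the refed pair the former 3 genes lay above 0 and the latter 3 below it. In the fasted pair Psmb8, at -0.07, was below 0 as well.

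**Figure D4:**
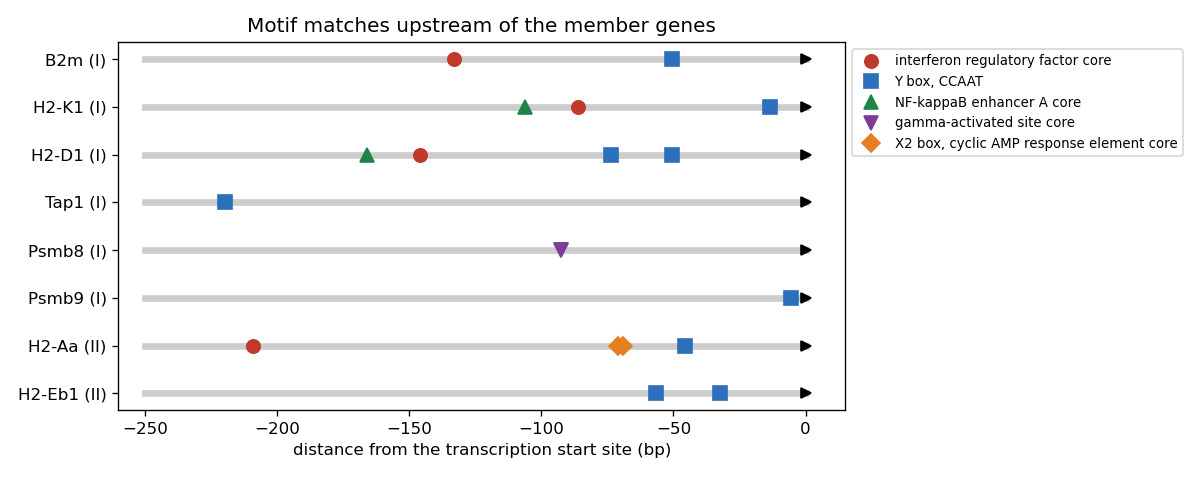
Position of each motif match upstream of 8 member genes, in bp from the transcription start site (arrowhead at 0); class I genes are marked I and class II genes II. The green triangles (enhancer A core) are on the H2-K1 and H2-D1 lines alone and the orange diamonds (X2 core) on the H2-Aa line alone, while blue squares (Y box) are on 7 of the 8 lines.

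The rest of the class I pathway did not share the direction of the members. Among 11 other genes of class I processing and loading, 3 were above 0 and 8 below 0 in both pairs, with medians of -0.34 and -0.14. Tap2, the partner of Tap1, had differences of 0.16 and 0.00, and tapasin (Tapbp) 0.07 and 0.09. Psmb10, the remaining immunoproteasome catalytic subunit, had -0.71 and -0.23. The only gene of this list past 2-fold was calreticulin (Calr), a chaperone of the peptide-loading complex, at -1.24 in the fasted pair, and it was at -0.33 in the refed pair. Pdia3, its partner, had -0.81 and -0.35. All 7 constitutive proteasome beta subunits (Psmb1 to Psmb7) were below 0 in the fasted pair, with a median of -0.39, and 5 of 7 were in the refed pair, with a median of -0.08. Nlrc5, the transactivator of class I genes, had 0.10 in the fasted and 0.79 in the refed pair. Its log2 signals were 0.72 and 0.82 in the fasted Cont and Drp1LiKO livers and -0.33 and 0.46 in the refed ones. The refed Cont liver was thus lowest, 1.05 below the fasted Cont liver. Its other probe, well above background on 1 array of each pair, gave 0.07 and -0.12 with dim signals taken as read.

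Of 20 nonclassical and further class I genes 17 were on the array. In each pair a difference was measured for 16 of them, of which 14 were above 0 in the fasted and 9 in the refed pair. H2-T9, H2-T10 and H2-M3 lay close to Tap1, at 0.89, 0.80 and 0.83 in the fasted and 0.89, 0.87 and 0.86 in the refed pair. H2-Q8 and H2-T24 passed 2-fold in the refed pair alone, at 1.08 and 1.18. H2-Q10, a soluble class I protein that the liver secretes, went the other way, at -0.30 and -0.51 on its brighter probe, and its other probe gave 0.19 and -0.32. Many of these genes are near-identical copies, and how their probes divide the signal was not tested.

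The rest of the class II pathway was split as well. Of 15 further genes 11 were detected. The loading factors H2-DMa, at -0.04 and -0.16, and H2-DMb1, at -0.14 and -0.24, were below 0 in both pairs by less than 2 measurement SEs. H2-Oa went the other way, at 0.79 or more in the fasted pair, where the Cont liver was within background, and at 0.72 in the refed pair. Ciita, the master transactivator of class II genes, was dim and had log2 signals of -3.56 and -4.05 in the fasted Cont and Drp1LiKO livers and -3.24 and -3.74 in the refed ones. Its differences of -0.49 and -0.50, with measurement SEs of 0.39 and 0.40, were below 2 SEs. The proteases that degrade the invariant chain and antigens had positive values. Cathepsin L (Ctsl) was at 1.12 and 1.46 and cathepsin S (Ctss) at 0.60 and 1.13, and Ctsl was past 2-fold in both pairs. H2-Ob was also past 2-fold in both pairs on the probe used, by at least 2.88-fold and 6.73-fold since neither Cont liver was well above background. None of its probes was well above background on both arrays of a pair, so no exact difference is given. Its 3 detected probes were far apart. With dim signals taken as read, their differences ran from 0.61 to 3.7 in the fasted and from 0.03 to 4.4 in the refed pair. Of the 18866 detected genes, 264 were past 2-fold upward in both pairs and 232 downward.

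**Figure D5:**
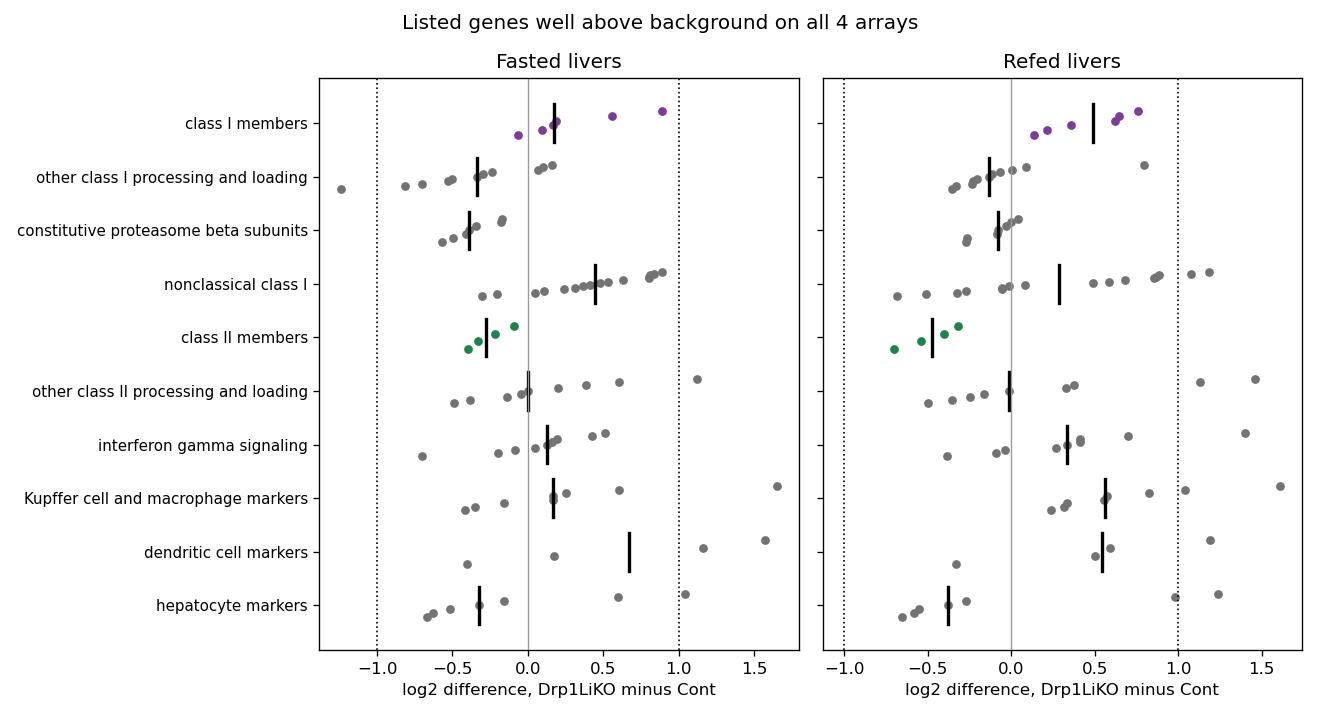
Log2 difference between the Drp1LiKO and the Cont liver for genes of 10 lists that were well above background on all 4 arrays, in the fasted pair (left) and the refed pair (right). Each point is a gene, black bars are list medians, dotted lines mark 2-fold, and members are purple (class I) and green (class II). Class II members are the list with no point above 0 in both panels, and constitutive proteasome subunits lie below 0 in the fasted panel.

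Among 10 genes of interferon gamma signaling, Ifng itself stayed within background on every array, and 6 of the 9 detected genes were above 0 in each pair. Socs1, a feedback inhibitor that interferons induce, was at 0.51 and 1.40 and passed 2-fold in the refed pair. Irf9 was at 0.13 and 0.70 and Irf1 at -0.20 and 0.34, whereas Irf2 was at -0.70 and -0.38. The costimulatory ligand Cd86 was at 0.21 and 0.87, Cd40 at 0.45 and 0.69, and Cd80 at -0.24 and -0.28.

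The markers of the cells that normally make class II molecules were examined as lists. In the fasted pair 1 of 8 Kupffer cell and macrophage markers, 2 of 7 detected dendritic cell markers and 0 of 4 detected B cell markers passed 2-fold upward, and in the refed pair 2 of 8, 1 of 6 and 0 of 4 did, with none downward. Beside them, 4.31% of all genes passed upward and 5.03% downward in the fasted pair, and 4.03% and 6.34% in the refed pair. Lists this short give no reliable share. The pan-leukocyte marker Ptprc was dim, at log2 signals of -3.53 and -2.33 in the fasted Cont and Drp1LiKO livers and -2.33 in the refed Drp1LiKO liver, and it was not well above background in the refed Cont liver. It was 2.29-fold higher in the fasted Drp1LiKO liver and at least 2.33-fold higher in the refed one. Of 8 Kupffer cell and macrophage markers 5 were above 0 in the fasted and 8 in the refed pair, with medians of 0.17 and 0.56. Marco, a scavenger receptor, was at 1.65 and 1.61, past 2-fold in both pairs. Clec4f, which marks Kupffer cells, was at -0.16 and 0.34, Timd4 at -0.42 and 0.32, Csf1r at -0.35 and 0.24 on the probe used, and Emr1 (F4/80) at 0.17 and 0.55. The other Csf1r probes, also well above background, gave 0.15 and 0.20 in the fasted and 0.68 and 0.31 in the refed pair, so its sign in the fasted pair depends on the probe. The other Emr1 probe gave 0.42 and 0.96, and the other probe of Cd68 gave 0.66 and 1.15 against 0.60 and 0.57 on the probe used. The summed level of these 8 markers, in multiples of the 75th percentile of an array, was 95.1 and 109 in the fasted Cont and Drp1LiKO livers and 106 and 185 in the refed ones. Each gene entered that sum by 1 probe.

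Of 8 dendritic cell markers 7 were detected, and Xcr1 stayed within background throughout. In each pair a difference, or a bound where an array was within background, could be given for 5 of them, with 4 above 0 and 1 below, which was Batf3 at -0.41 in the fasted and Zbtb46 at -0.33 in the refed pair. Itgax (CD11c) was at 1.16 and 1.19, past 2-fold in both pairs, and the summed level of the list was 0.971 and 1.32 in the fasted Cont and Drp1LiKO livers and 1.06 and 1.63 in the refed ones. Of 6 B cell markers 4 were detected and Pax5 and Blk were not, with summed levels from 0.563 to 1.19. Of 8 T and NK cell markers 5 were detected, Cd8a, Ncr1 and Klrb1c not being among them. Cd3d was at 0.98 and 1.07 and Cd3e at -0.67 and -0.64, and the summed level, most of it from Cd4, was 20.9 and 17.2 in the fasted and 21.6 and 15.9 in the refed livers. Of 6 sinusoidal endothelial markers 3 were below 0 in the fasted and 4 in the refed pair, and their summed level was 54.5 and 45.7 in the fasted Cont and Drp1LiKO livers and 57.6 and 39.0 in the refed ones. That sum takes 1 probe per gene. Kdr was at -0.81 and -0.93 on the probe used and at 0.33 and -0.24 on its other probe. Stab2 was at -0.05 and -0.24 on the probe used, and its other probes gave -0.28 and -0.54, and 0.14 and 0.32. Of 7 hepatocyte markers 5 were below 0 in both pairs, among them Alb at -0.52 and -0.55. The other two were Tat, at 1.04 and 0.98, and Cps1, at 0.60 and 1.24, so that Tat passed 2-fold in the fasted and Cps1 in the refed pair. Of 4 markers of bile duct cells 3 were detected, and Epcam was not. Sox9 was past 2-fold in both pairs at 2.37-fold and, with the refed Cont liver within background, at least 3.18-fold. The other detected markers did not pass 2-fold. Krt19 was at 0.22 and 0.68. Krt7 was within background in both Cont livers, with no value given in the fasted pair and 0.01 or more in the refed pair. The part of these cell types in the class I and class II values was not tested.

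The profile of each class over the 4 arrays was also set against all other genes. Likeness was measured as the root mean square distance between log2 signals after each gene's mean was removed. Over 11893 named genes well above background on all 4 arrays, those nearest to the median class I profile were Rnf31, Faf1, Mtmr12, Ccdc137 and Plekhm2, at distances from 0.0053 to 0.018, and those nearest to the class II profile were Olfr96, Prdx4, Tsen34, Pqbp1 and 1810073O08Rik, at 0.0068 to 0.014. With 4 arrays such profiles are common, and 3.55% and 5.82% of 14377 genes lay within 0.1 of them. The class I members themselves lay between 0.081 (Psmb9) and 0.33 (Tap1) from their median profile and the class II members between 0.036 (H2-Eb1) and 0.092 (H2-Aa), so the class II members were the tighter group.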

How the data were processed

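Total RNA of 4 mouse livers was hybridised to Agilent one-colour 4x44K arrays, 1 per group, and the labels give genotype, diet and refeeding. Per the file headers the deposited intensity values are processed signals of Feature Extraction 10.7.1.1 (background-corrected, mm9 annotation), while the submitters' processing notes name version 9.5.1.1. The authors' normalized table held linear values. On the log2 scale 99.5% of them were within 0.01 of a quantile normalization of these signals, so the log2 of that table served as an alternative.

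Spots flagged as outliers were dropped (37 of 39429 probes were lost), repeats averaged, and log2 signals centred on the 75th percentile of each array. A gene was read by the probe well above background on most arrays, then the brightest. A 2-fold call needed the brighter signal well above background, and a dim signal was raised to the array's lowest detected signal where it lay below that. Repeat spots of 399 probes had a median SD of 0.06 to 0.07 log2 units. With 1 array per group no p-value was computed within a pair. limma 3.58.1 (R 4.3.3) was fitted across all 4 arrays with Benjamini-Hochberg adjustment, and the 2-fold rule and the fit were run on simulated data. The former simulation had the scanner's error as its only noise and the latter 1 common SD for all genes. Neither can show how far the calls would hold between mice. The number of arrays limits the precision.

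The members and gene lists were chosen with earlier results of these data known. The text names all members, listed genes past 2-fold the same way in both pairs, defining cell markers and the 5 genes nearest to each class profile; other listed genes were named after their values were seen. H2-Ke6, a steroid dehydrogenase gene, was taken off the class I list after its value was seen, and some genes of the other lists are not reported here. Promoter sequences are from RefSeq (GRCm38.p6). Alternatives were other scalings, background correction, the authors' table, other probe and dim-signal rules, a 1.5-fold threshold and other fits.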

Additional observations from a re-analysis of the deposited data

Results flagged for a closer look

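A member was listed here when its difference had opposite signs in the 2 feeding states or the 2 genotypes. Each direction rests on 1 array per group, and none of these differences was tested. Psmb8 was at -0.07 (Drp1LiKO minus Cont) in the fasted and 0.36 in the refed pair, a gap of 0.42 with a measurement SE of 0.29. The refed minus fasted differences of the class II members were positive in Cont and negative in Drp1LiKO livers, and these directions turned with the scaling: under median scaling H2-Aa was at 0.087, H2-Eb1 at 0.015 and Cd74 at 0.059 in Drp1LiKO livers, and under quantile normalization H2-Ab1 was at -0.069 and Cd74 at -0.15 in Cont livers. The gap between genotypes (Drp1LiKO minus Cont) was -0.23 for H2-Aa, -0.30 for H2-Ab1, -0.33 for H2-Eb1 and -0.072 for Cd74, each with a measurement SE of 0.29. All 4 gaps were below 2 measurement SEs.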

How the results depend on the processing

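No paired analysis was possible because no replicate numbers are shared with 1 array per group; the feeding term of the limma fit is the only block, and no replicate could be left out. The class medians kept their sign in both genotype comparisons under every alternative run. Under quantile normalization the class I median was 0.46 in the fasted pair, and 0.46 with the authors' values, against 0.17, and the class II median was -0.071 against -0.28. The medians of refed minus fasted moved as well. In Cont livers quantile normalization gave -0.12 for class I and -0.012 for class II (authors' values -0.12 and -0.012) against 0.14 and 0.20, and in Drp1LiKO livers it gave -0.19 and -0.31 (authors' values -0.19 and -0.31) against 0.23 and -0.05. The scaling moved the median of all genes too, from -0.15 to 0.00 in the fasted and from -0.15 to 0.02 in the refed genotype comparison, and relative to it class I stayed at 0.26 to 0.46 and 0.39 to 0.62, and class II at -0.19 to -0.05 and -0.41 to -0.26. In the fasted pair 2 of 4 class II members lay below that median with normexp. Under quantile normalization, the authors' values and the median over probes 3 of 4 did. At 1.5-fold, 1 member passed in the fasted pair (Tap1) and 4 in the refed pair (H2-D1, Tap1, Psmb9 and H2-Ab1), beside 1768 genes upward and 2480 downward of 17946 in the fasted and 1744 and 2665 of 17366 in the refed pair. The count of genes past the limma adjustment was 0, and it was 339 with median scaling, 509 with normexp background correction, 1232 with genes well above background on all 4 arrays, 487 with an intensity trend and 1 without the feeding term. No member was among them except Tap1 with the 1232 genes, where 1 member passed. The other alternatives of that fit gave 0 genes, with 4302 unadjusted under quantile normalization and 4738 in the fit reported. The causes were not tested. Precision is limited by 1 array per group: the measurement SE leaves out variation between mice, and dim genes such as Ciita or Ptprc lie near the background.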
